A study of Homo sapiens with 8 samples.

Results

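The loci of FOS, FOSB, FOSL1, FOSL2, JUN, JUNB, JUND and ATF3 were examined in a chromatin accessibility experiment on human cells under hyperosmotic stress. Members were all accessibility peaks overlapping the body of 1 of these 8 genes or the 50 kb on each side of it, with gene positions from the RefSeq gene table of GRCh38.p14. This gave 130 of the 129536 peaks in the deposited count table, and no peak belonged to 2 loci. All 130 passed the filter on low counts. Of these, 16 lay within 1 kb of an end of the listed gene (gene-end peaks), 42 within 1 kb of an end of a neighbouring gene, and 72 elsewhere in the flanks or inside the genes.

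The cells were HEK293, a human embryonic kidney line. Their genotype is given as eGFP-YAP, a fusion of a fluorescent protein to the transcriptional coactivator YAP. The titles name HEK293 only and the library names carry wt (wild type), so the labels are in conflict on the genotype. They also do not say whether the eGFP-YAP line is 1 clone. The series description states that cells were starved of serum before the stress, which both groups would then share. The vehicle group had 4 libraries, and the 4 sorbitol libraries came from cells exposed for 1 h to sorbitol at 0.2 M. Sorbitol is a sugar alcohol that makes the medium hyperosmotic so that cells lose water. Column names mark the vehicle libraries as control at 0 h and the sorbitol libraries as 1 h. These names show no vehicle kept for 1 h, so sorbitol and time cannot be told apart from them. Each library was made by Omni-ATAC-seq from 50000 cells, a method in which a transposase cuts and tags open chromatin. The labels do not say whether libraries came from separate cultures, so p-values measure the spread between these libraries, which may be technical.

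FOS and JUN proteins pair with each other through leucine zippers to form AP-1, a transcription factor that binds the motif TGACTCA. ATF3 belongs to the related ATF/CREB group, which also binds the longer palindrome TGACGTCA. FOS, FOSB, JUN, JUNB and ATF3 are known as immediate early or stress response genes, whose RNA can rise within minutes of serum, growth factors or osmotic shock through the ERK, JNK and p38 kinases, whereas JUND is known for steadier expression. Their promoters are known to be open before a stimulus in many cell types.

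To show the sequence at the starts whose peaks are compared below, the 250 bases before the RefSeq start are printed for the 6 genes with a peak within 1 kb of a listed start, from the RefSeq promoter table of GRCh38.p14, each 5′ to 3′ on the gene's strand. Capitals mark matches to TGACNTCA or TGACG on either strand; TGACTCA was also searched.
JUND, chr19:18281623-18281872, minus strand: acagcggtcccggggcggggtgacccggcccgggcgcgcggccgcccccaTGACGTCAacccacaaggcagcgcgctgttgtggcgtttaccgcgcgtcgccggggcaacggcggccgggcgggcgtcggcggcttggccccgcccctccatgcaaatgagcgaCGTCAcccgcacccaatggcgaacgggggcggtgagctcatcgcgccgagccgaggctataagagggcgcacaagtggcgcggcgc
JUN, chr1:58784048-58784297, minus strand: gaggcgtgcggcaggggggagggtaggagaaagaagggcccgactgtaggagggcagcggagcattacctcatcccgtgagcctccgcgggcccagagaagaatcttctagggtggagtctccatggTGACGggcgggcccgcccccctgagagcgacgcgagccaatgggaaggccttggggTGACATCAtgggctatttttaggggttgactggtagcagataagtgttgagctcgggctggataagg
FOS, chr14:75278578-75278827, plus strand: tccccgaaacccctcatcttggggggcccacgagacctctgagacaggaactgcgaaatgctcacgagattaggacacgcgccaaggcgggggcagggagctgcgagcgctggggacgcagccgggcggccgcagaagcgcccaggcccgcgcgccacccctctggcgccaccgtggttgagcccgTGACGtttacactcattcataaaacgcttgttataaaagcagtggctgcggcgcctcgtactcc
FOSB, chr19:45467746-45467995, plus strand: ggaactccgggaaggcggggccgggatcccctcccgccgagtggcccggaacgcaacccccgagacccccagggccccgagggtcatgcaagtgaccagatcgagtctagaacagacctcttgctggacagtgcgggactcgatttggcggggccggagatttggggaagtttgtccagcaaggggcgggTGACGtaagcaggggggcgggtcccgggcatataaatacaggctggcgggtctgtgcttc
FOSL2, chr2:28392608-28392857, plus strand: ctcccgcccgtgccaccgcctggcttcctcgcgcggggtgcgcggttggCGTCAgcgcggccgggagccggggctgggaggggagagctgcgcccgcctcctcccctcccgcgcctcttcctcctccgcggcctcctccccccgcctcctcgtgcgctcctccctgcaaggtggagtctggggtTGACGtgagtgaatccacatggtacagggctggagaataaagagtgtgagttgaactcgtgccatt
JUNB, chr19:12791236-12791485, plus strand: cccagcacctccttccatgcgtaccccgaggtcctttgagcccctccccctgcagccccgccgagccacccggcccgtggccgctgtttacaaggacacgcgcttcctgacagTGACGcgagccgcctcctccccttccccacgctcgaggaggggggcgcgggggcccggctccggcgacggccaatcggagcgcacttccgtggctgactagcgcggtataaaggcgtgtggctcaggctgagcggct

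No window of the 7 genes with an entry held TGACTCA, which 4.20% of the 35116 promoter windows of the same length in the table hold. JUND had the palindrome TGACGTCA from -200 to -193 relative to the start, and 3 matches to TGACG, of which those at -200 and -197 overlap within the palindrome and the third lay at -86. JUN had TGACATCA from -67 to -60 and TGACG at -123. TGACNTCA is held by 6.87% of all windows and TGACG by 21.2%. FOS, FOSB and JUNB had 1 TGACG each, at -64, -60 and -137, and FOSL2 had 2, at -201 and -66. TATAAA, found in 10.7% of windows, lay at -33 in FOS, -30 in FOSB and -31 in JUNB, whereas CCAAT, found in 32.0%, lay at -87 in JUN, -67 in JUNB and -74 in JUND. The window before the first listed ATF3 start held TGACATCA from -123 to -116. GC content was 74.8% in the JUND window, 70.8% in JUNB, 69.6% in FOSL2, 65.6% in FOSB, 64.8% in FOS and 62% in JUN, against a median of 58% over all windows. The windows before the listed ATF3 starts had 49.2% and 44.8%.

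Vehicle libraries held 14757015 to 19831471 counts in peaks and sorbitol libraries 11522266 to 14355727. Every sorbitol library was thus below every vehicle library, and depth and treatment cannot be told apart. Levels are given as CPM, the counts of a peak relative to library size with TMM scaling factors. Over all peaks, log2 CPM of single libraries correlated (Pearson) at 0.948 to 0.968 within groups and 0.910 to 0.927 between them. In 477 peaks on unplaced contigs, median log2 deviations were -0.29 to -0.07 in vehicle 1 to 3 and 0.08 to 0.28 in sorbitol 1 to 3. Vehicle 4 (0.34) and sorbitol 4 (-0.30) had the opposite signs to the other libraries of their groups. The share of counts at gene ends of all genes was 50.5% to 52.5% in vehicle libraries and 46.7% to 49.4% in sorbitol libraries, so it moved with treatment. Of 5 genes typical of HEK293 cells, VIM, KRT8, KRT18 and INA had a gene-end peak and PAX2 had none, whereas of PTPRC, CD3E, ALB, INS and MYH6, markers of blood, liver, pancreas and heart, PTPRC alone had one, with 1.16 CPM.

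Across the 8 loci, accessibility changed in both directions and differently from gene to gene. Each peak was tested with edgeR's quasi-likelihood fit, with p-values adjusted by Benjamini-Hochberg over all 129487 tested peaks and called under 0.05. On this rule 14 of the 130 peaks were higher after sorbitol, 37 were lower and 79 were not called. The balance depends on the scaling: with TMM factors from gene-end peaks, 34 were higher and 25 lower, and with library totals 22 and 32. In the reported fit 29.1% of all tested peaks were called, 16% as higher and 13.1% as lower. Over all tested peaks, 20701 of 37717 calls were higher in that fit, 34040 of 42710 with factors from gene-end peaks and 26162 of 38812 with library totals. The other calls were lower. The median log2 fold change of the reported fit was 0.01 over all tested peaks and -0.08 for the 130. Of the 14 higher peaks, 7 lay at ATF3, 3 each at JUN and JUND and 1 at FOSL1. The lower peaks numbered 11 at FOSL1, 8 at JUNB, 7 at FOSB, 6 at JUND, 2 each at FOS and FOSL2, and 1 at JUN.

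**Figure D1:**
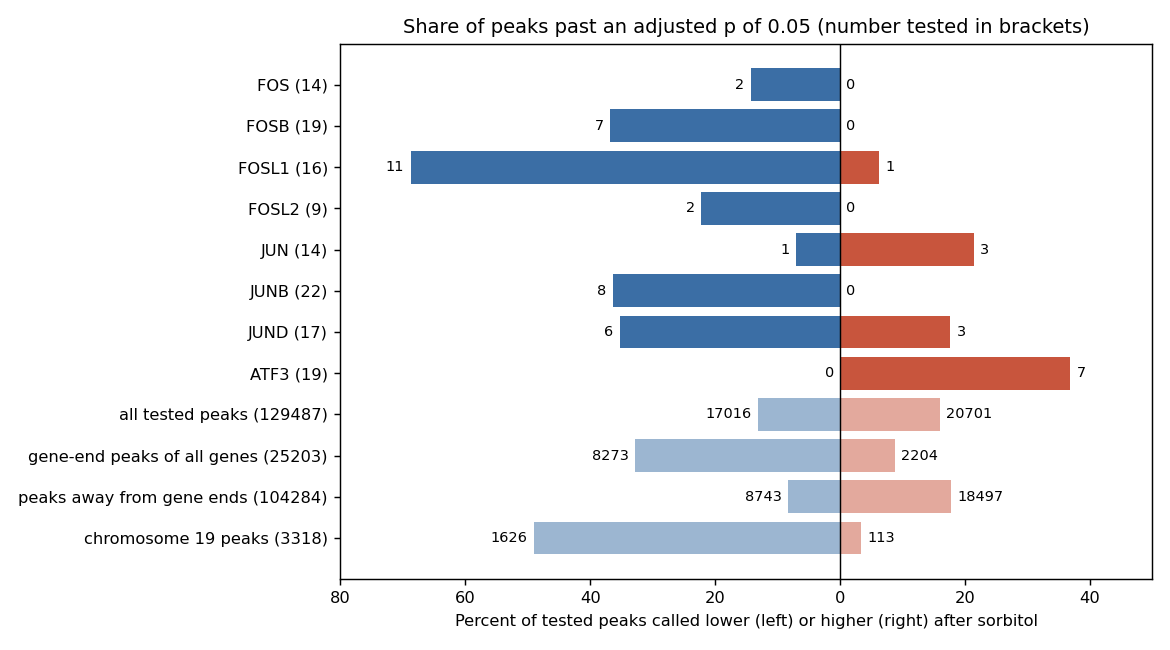
Percent of tested peaks called lower (left, blue) or higher (right, red) after sorbitol at an edgeR adjusted p under 0.05, for each locus (dark bars, number of peaks in brackets) and for reference sets of peaks over the genome (pale bars). Numbers beside the bars are counts of called peaks; ATF3 has 7 higher and 0 lower of 19, and FOSL1 has 1 higher and 11 lower of 16.

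Calls differed between classes of peaks. None of the 42 peaks at neighbouring gene ends was called higher by edgeR (2 at an unadjusted p under 0.05, and 0 by the DESeq2 Wald test), while 22 were lower, and their log2 fold changes had the median -0.39. Of the 42, 7 lay at FOSB, 9 at JUNB and 8 at JUND, with 4 lower at each of these loci. They are on chromosome 19, where 3.05% of gene-end peaks were higher and 64% lower. Taking all genes, 8.74% of gene-end peaks were called higher and 32.8% lower (median -0.17). The 16 gene-end peaks of the listed genes themselves had 3 higher and 6 lower calls and likewise a median of -0.17; with TMM factors from gene-end peaks they had 6 higher and 3 lower. Of the 72 other peaks, 11 were called higher and 9 lower (median 0.08), and over the genome 17.7% of peaks away from gene ends were higher and 8.38% lower. Of the 11 higher ones 7 lay at ATF3, and the 55 at the other loci had 4 higher and 9 lower. Groups did not overlap, with all sorbitol libraries above all vehicle libraries in CPM, at 17 member peaks, and with all below at 37; over all tested peaks these shares were 13.7% and 12.6%. FOSB, JUNB and JUND lie on chromosome 19, where 3.41% of all peaks were higher and 49% lower, so their 3 higher and 21 lower of 58 peaks stand beside that level.

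**Figure D2:**
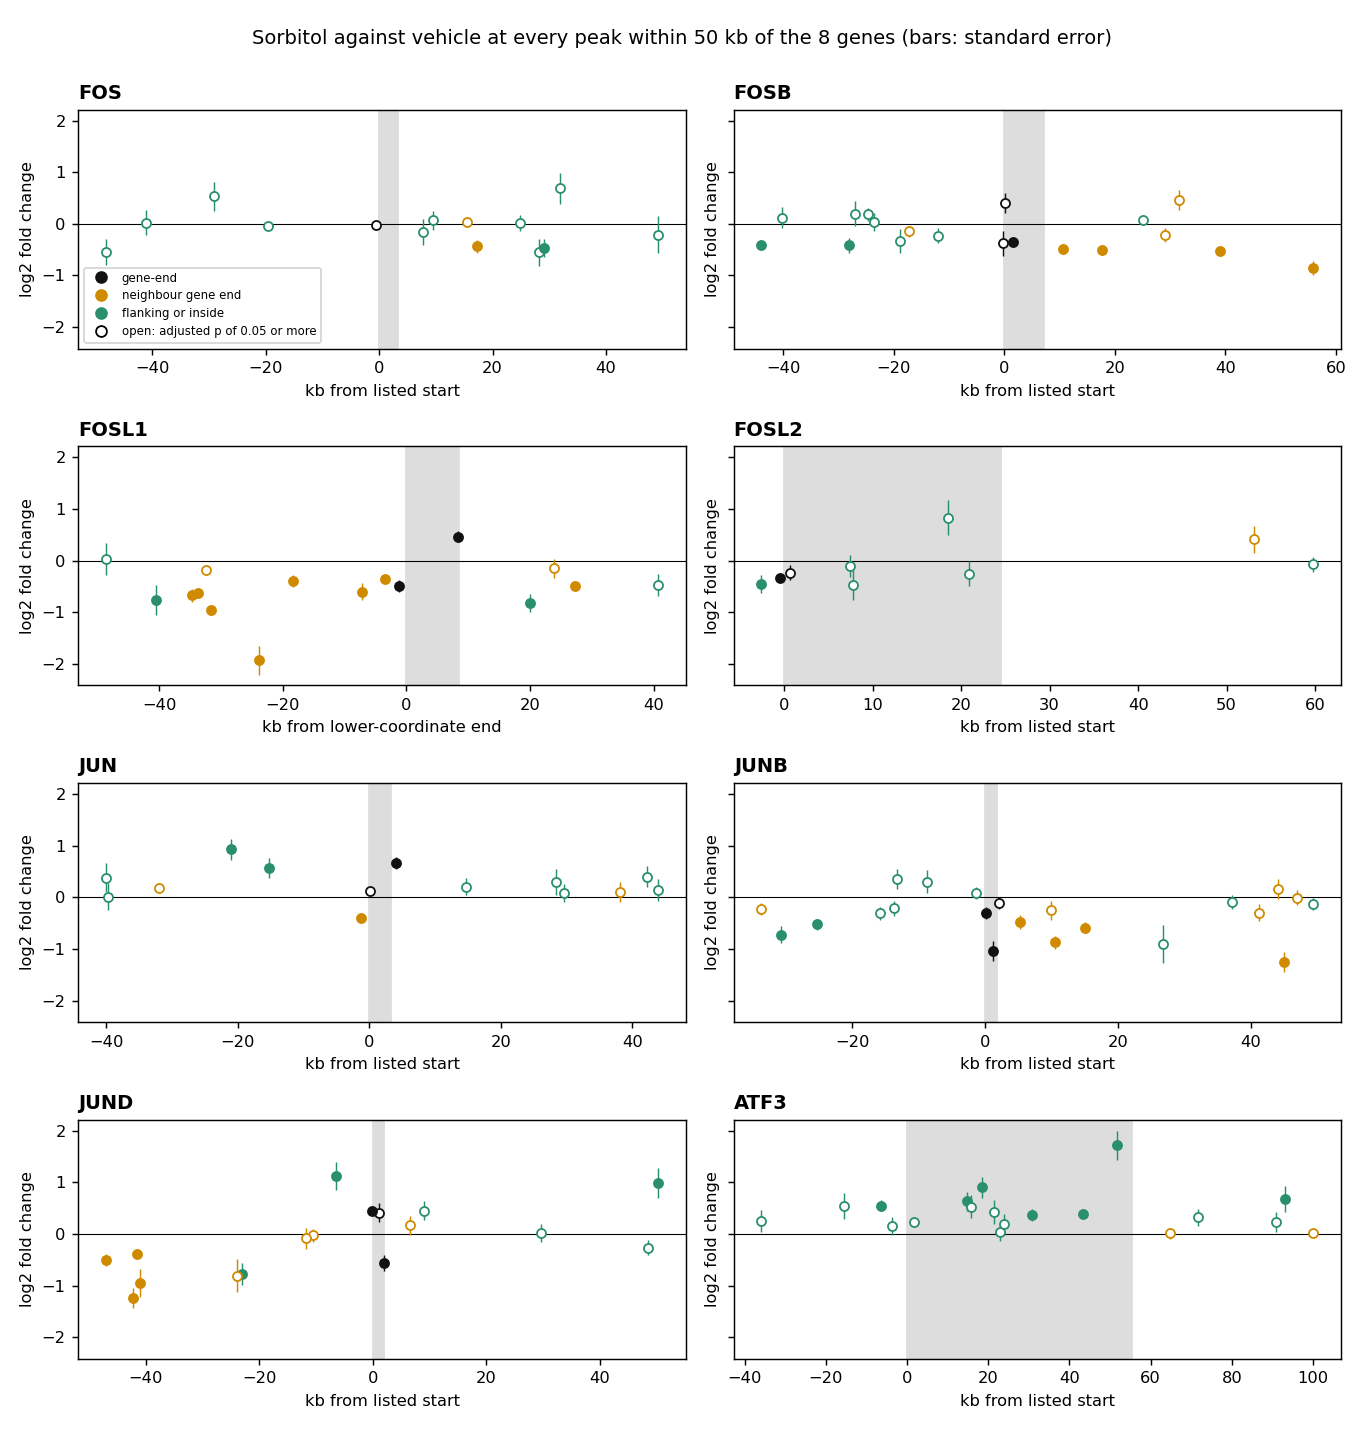
Log2 fold change (sorbitol over vehicle) of each of the 130 peaks, with its standard error, against distance in kb from the listed gene start (FOSL1: from its lower-coordinate end), with the gene in grey. Filled points passed an adjusted p of 0.05; black points are the gene's own end peaks, orange points lie at ends of neighbouring genes and green points elsewhere. All points of the ATF3 panel lie above 0, and most filled points of the FOSL1 panel lie below it.

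ATF3 encodes a stress-induced bZIP repressor and activator. Its 19 peaks had log2 fold changes of 0.01 to 1.72 with a median of 0.37, and 7 were called higher and 0 lower by edgeR. At an unadjusted p under 0.05, 10 were higher and 0 lower, and DESeq2 called 6 higher and 0 lower. With factors from gene-end peaks, edgeR called 13 higher and 0 lower. Over all tested peaks that scaling called 34040 higher, against 20701 in the reported fit. On chromosome 1 away from gene ends, 19.2% of peaks were called higher and 7.01% lower (median 0.12). Inside the gene, 5 of 10 peaks were higher. The number of ATF3 peaks above 0 was 18 or 19 under the scalings tried and 16 without sorbitol 4; without vehicle 4 and sorbitol 4 together, 7 were higher and 0 lower.

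The strongest peak of the ATF3 locus lay inside the gene at chr1:212607925-212609828, 5190 bp before the second listed start. Its vehicle libraries 1 to 4 had 103, 107, 105 and 95.3 CPM and its sorbitol libraries 125, 137, 129 and 145 CPM. Every sorbitol library was above every vehicle library, and the means were 103 ± 5.11 and 134 ± 8.45 CPM (SD, n = 4). The log2 fold change was 0.38 with a standard error of 0.07 and an edgeR adjusted p of 6.52e-05. The table lists ATF3 starts at 212565407 and 212615018, and the nearest peaks to them lay 1197 and 1985 bp away, so the gene had no gene-end peak under the rule. ATF3 is known to be transcribed from alternative promoters; whether this peak lies at a start that the table does not list was not tested.

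The largest increase among the 130 peaks was at a weak peak inside ATF3, at chr1:212617003-212617212. Vehicle libraries had 0.884, 0.904, 1.08 and 0.616 CPM and sorbitol libraries 4.42, 2.02, 2.76 and 2.54. The groups did not overlap, with sorbitol 1 the highest, and the log2 fold change was 1.72 ± 0.29 (standard error; edgeR adjusted p = 6.47e-06) on a mean of only 25.9 counts. A peak 5854 bp before the gene, at chr1:212558392-212559553, had 13.7 ± 1.02 CPM in vehicle and 20.1 ± 0.831 CPM in sorbitol libraries (SD, n = 4). All sorbitol values there exceeded all vehicle values, with a log2 fold change of 0.55 (edgeR adjusted p = 3.35e-05). The other higher peaks were at chr1:212579897-212580322 (log2 fold change 0.63), chr1:212583612-212583955 (0.90), chr1:212595857-212596701 (0.37) and chr1:212658339-212658601 (0.68), with edgeR adjusted p-values of 0.000418 to 0.0354. The last lies in LINC02773, a long non-coding RNA gene, and stayed past the threshold in only 7 of 17 alternatives that tested it; it was lost without any 1 of vehicle 1, 2 or 3 and sorbitol 1, 3 or 4 (adjusted p of 0.0507 to 0.148). The peak at 212595857 lost its call without vehicle 1 (adjusted p = 0.0569) and without sorbitol 1 (0.0638).

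**Figure D3:**
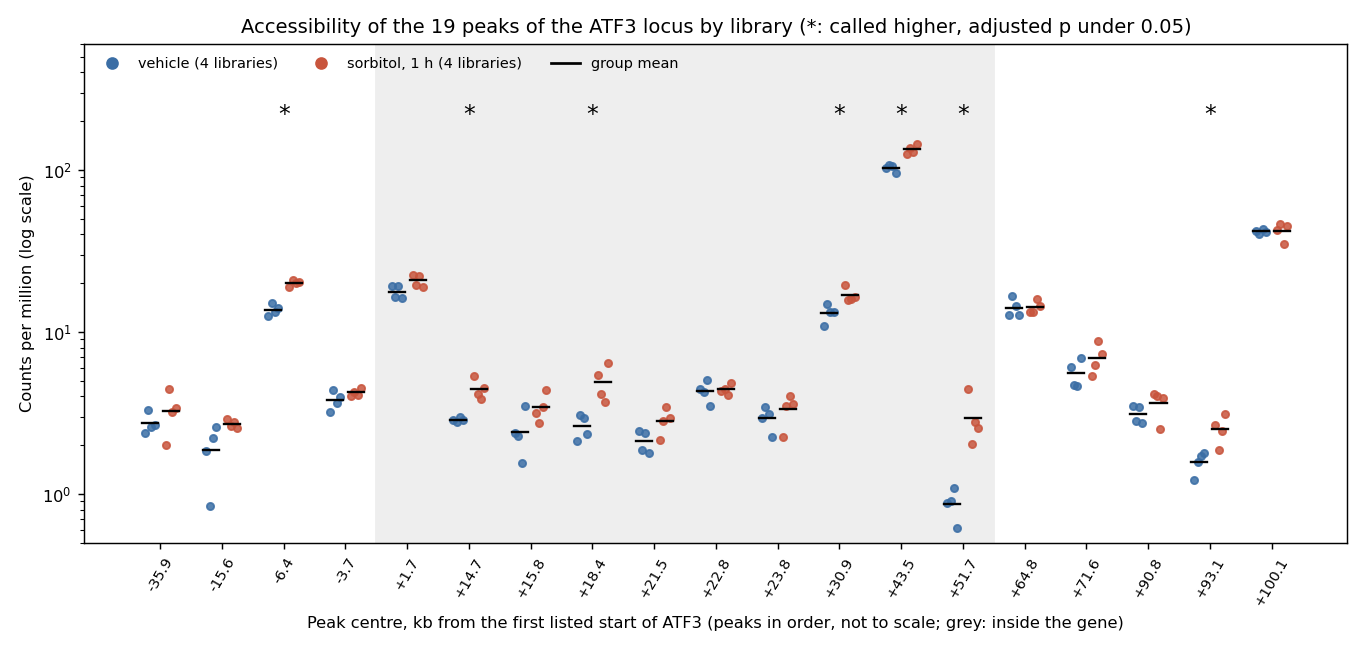
CPM (log axis) of the 19 ATF3 peaks in each vehicle (blue) and sorbitol (red) library, ordered by position, with the group mean as a black bar and the gene in grey. Asterisks mark the 7 peaks called higher; at each of them all 4 sorbitol libraries lie above all 4 vehicle libraries.

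Summed over the 17 ATF3 peaks away from any gene end, accessibility was 184.0 ± 6.08 CPM in vehicle and 241.4 ± 8.89 CPM in sorbitol libraries (SD, n = 4). The groups did not overlap (two-sided exact permutation p = 0.0286, which no split of 4 against 4 can go below; adjusted p = 0.0657 over the 23 sums of loci and classes). The strongest ATF3 peak, at chr1:212607925-212609828, alone held 103 CPM of the vehicle sum and 134 CPM of the sorbitol sum. The 2 peaks at ends of LINC02773 held 55.8 ± 1.84 and 56.5 ± 4.16 CPM, and their groups overlapped. Of the 23 sums, 10 reached the smallest p and none passed the threshold after adjustment. A sum at the smallest p passes only if most of the 23 reach it, so the adjusted test could not decide for single sums.

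JUN, the prototype partner of FOS, had its strongest peak at its start, at chr1:58783099-58784631, which also lies at an end of the divergent transcript JUN-DT. Vehicle libraries had 107, 106, 108 and 101.3 CPM and sorbitol libraries 106, 115, 115 and 125. The groups overlapped through sorbitol 1, and the log2 fold change of 0.13 ± 0.07 (standard error) was not called (edgeR adjusted p = 0.198). This call depends on the scaling and the filter: with library totals the value was 0.21 (adjusted p = 0.0122), with factors from gene-end peaks 0.30 (0.000146), with the loess offset 0.35 (1.03e-05) and, under a stricter filter of 50 counts on average, 0.21 (0.0111).

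Beyond its 3′ side, 557 bp from the gene, a smaller JUN peak at chr1:58779853-58780234 rose. It had 9.11, 8.55, 8.87 and 9.65 CPM in vehicle and 14.7, 12.98, 13.6 and 15.7 CPM in sorbitol libraries. No sorbitol library came near the vehicle range, and the log2 fold change was 0.66 ± 0.12 (standard error; edgeR adjusted p = 1.56e-05). Of the 9 JUN peaks away from gene ends, 2 were called higher (22.2%) and 0 lower. The level for such peaks over chromosome 1 is 19.2% higher and 7.01% lower. Both higher JUN peaks lay in JUN-DT. The peak at chr1:58804860-58805231 went from 2.24 ± 0.315 to 4.25 ± 0.265 CPM (SD, n = 4; log2 fold change 0.93, edgeR adjusted p = 0.000379). The other, chr1:58799066-58799554, had a log2 fold change of 0.57 (edgeR adjusted p = 0.018). Its call was lost without vehicle 4 (0.0591) and without sorbitol 3 (0.0639). The only lower peak of the locus lay at chr1:58785073-58785587, 1026 bp from JUN and inside JUN-DT, and went from 23.4 ± 1.25 to 17.6 ± 2.00 CPM (log2 fold change -0.41, edgeR adjusted p = 0.00117). Thus the peak over the JUN start was flanked by a lower peak on its upstream side and a higher peak beyond the gene. Over the locus, 13 of 14 fold changes were above 0, and 12 or 13 under each other scaling. Chromosome 1 peaks away from gene ends also leaned above 0 (median 0.12 on the log2 scale).

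JUND had a start peak that rose, at chr19:18281033-18282475, over the window with the TGACGTCA palindrome printed above. Vehicle libraries had 27.7, 37.5, 32.6 and 29.3 CPM and sorbitol libraries 41.3, 47.7, 40.3 and 44.3. Even the lowest sorbitol library lay above the highest vehicle library, and the log2 fold change was 0.45 ± 0.09 (standard error; edgeR adjusted p = 0.000114). Among gene-end peaks of chromosome 19, 3.05% were higher and 64% lower. The peak also covers the microRNA gene MIR3188 and LOC124904652, and ATAC-seq counts do not tell overlapping genes apart.

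Across the 3′ end of JUND, a peak at chr19:18279513-18279861 fell. Its vehicle values were 7.69, 8.92, 7.69 and 9.24 CPM and its sorbitol values 5.42, 7.23, 4.27 and 5.64 CPM, with no overlap (log2 fold change -0.57, edgeR adjusted p = 0.00293). The peak between these, at chr19:18280441-18280650, had 3.43 ± 0.676 and 4.55 ± 0.738 CPM (log2 fold change 0.41, edgeR adjusted p = 0.089). JUND therefore had opposite calls at its start and its other end. In the flanks, chr19:18287960-18288192, 6338 bp upstream, rose from 1.20 ± 0.208 to 2.65 ± 0.812 CPM (log2 fold change 1.12, edgeR adjusted p = 0.00124), and chr19:18231244-18231501 in PDE4C, a phosphodiesterase gene, had 0.99, a call lost without sorbitol 2 (0.69, edgeR adjusted p = 0.0997). All 4 lower neighbouring gene-end peaks lay at LSM4, which encodes an RNA-processing protein, or LOC124904654; the lowest, chr19:18323704-18323991, had a log2 fold change of -1.24 (edgeR adjusted p = 2.02e-06).

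JUNB, a JUN relative induced by many stimuli, had no higher peak among 22 by edgeR (0 at an unadjusted p under 0.05, and 0 by DESeq2). It had 8 lower peaks, or 36.4%, beside 3.41% higher and 49% lower of all chromosome 19 peaks. Its start peak, chr19:12791291-12791913, also lies at an end of HOOK2, which encodes a microtubule linker. Vehicle libraries had 17.4, 16.7, 13.8 and 13.5 CPM and sorbitol libraries 12.0, 12.5, 12.4 and 12.9. All sorbitol values were below all vehicle values, but by a narrow margin, with a log2 fold change of -0.30 ± 0.11 (standard error; edgeR adjusted p = 0.0323), and the call held in only 8 of 18 alternatives. The call was lost without vehicle 1 or 2 and without sorbitol 1, 2 or 3 (edgeR adjusted p of 0.055 to 0.141).

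A narrow peak inside JUNB, chr19:12792566-12792801, had 5.51, 4.76, 4.33 and 4.38 CPM in vehicle and 1.83, 2.25, 2.76 and 2.34 CPM in sorbitol libraries. The 2 groups were well separated (log2 fold change -1.04 ± 0.20 standard error, edgeR adjusted p = 5.64e-05). At the 3′ side, chr19:12793409-12793884 had 11.6 ± 0.980 and 10.8 ± 1.33 CPM, with overlapping groups (log2 fold change -0.11, edgeR adjusted p = 0.552). Elsewhere at the locus the smallest p belonged to chr19:12801591-12802352, at ends of the peroxiredoxin gene PRDX2 and of THSD8, with a log2 fold change of -0.87 (edgeR adjusted p = 2.93e-07). A peak near RTBDN, chr19:12836231-12836607, had -1.25.

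FOS itself had a wide peak of 2633 bp over its start, at chr14:75276961-75279593. Vehicle libraries had 55.8, 55.5, 52.9 and 48.2 CPM and sorbitol libraries 51.2, 51.0, 52.1 and 54.1. The groups overlapped, with vehicle 4 the lowest library of all, and the log2 fold change was -0.03 ± 0.08 (standard error; edgeR adjusted p = 0.834). Its sign turned with library totals (0.05), the loess offset (0.17), factors from gene-end peaks (0.15) and a mean of at least 50 counts (0.05), and none of these was called (adjusted p of 0.0503 to 0.611). Of the 13 other FOS peaks, edgeR called 0 higher (1 at an unadjusted p under 0.05, and 0 by DESeq2) and 2 lower (15.4%). Over all tested peaks 16% were called higher and 13.1% lower. The lower peaks were chr14:75295687-75296401 at the non-coding gene LINC01220 (log2 fold change -0.44, edgeR adjusted p = 0.00885) and chr14:75307690-75308146 (-0.47, 0.0273). The latter call was lost without vehicle 3 or 4 and without sorbitol 1 or 3 (edgeR adjusted p of 0.0504 to 0.094). With factors from gene-end peaks, 3 of the 14 FOS peaks were higher and 0 lower, where that scaling called 34040 of 129487 tested peaks higher.

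FOSB, a FOS paralog, had 3 gene-end peaks. The strongest, chr19:45468880-45470155, begins 884 bp into the gene and had 36.5, 38.1, 34.3 and 30.3 CPM in vehicle and 26.6, 29.5, 23.7 and 29.0 CPM in sorbitol libraries. Its groups did not overlap, with vehicle 4 close to the sorbitol range (log2 fold change -0.35 ± 0.09 standard error, edgeR adjusted p = 0.00219). The call was lost with the loess offset (adjusted p = 0.0634) and with factors from gene-end peaks (0.0804). Just downstream of the start, chr19:45467999-45468270 had 2.90 ± 0.443 and 3.86 ± 0.343 CPM; all sorbitol libraries were above all vehicle libraries, but the log2 fold change of 0.40 was not called (edgeR adjusted p = 0.121). Just upstream, chr19:45467699-45467907 had 2.52 ± 0.714 and 1.96 ± 0.189 CPM (log2 fold change -0.38, edgeR adjusted p = 0.256). Of all chromosome 19 peaks, 49% were lower and 3.41% higher. The FOSB locus had 7 lower (36.8%) and 0 higher of 19 peaks by edgeR (2 higher at an unadjusted p under 0.05, and 0 by DESeq2). The smallest p was at chr19:45523681-45524120, at LOC107985315 in VASP, an actin regulator gene, with a log2 fold change of -0.86 (edgeR adjusted p = 6.47e-07).

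FOSL1, the FRA-1 gene, lies among many neighbouring gene ends. Of its 16 peaks 11 were lower, beside 13.1% of all tested peaks and 32.8% of gene-end peaks of all genes. The FOSL1 gene-end peaks had opposite calls. At the higher-coordinate end, chr11:65899955-65900822 had 13.2, 14.3, 12.4 and 13.9 CPM in vehicle and 19.7, 18.6, 18.2 and 17.8 CPM in sorbitol libraries. Every sorbitol library lay above the vehicle range (log2 fold change 0.46 ± 0.10 standard error, edgeR adjusted p = 0.000448). At the lower-coordinate end, chr11:65890395-65891196, which overlaps CCDC85B, had 21.8, 21.7, 17.6 and 16.6 CPM in vehicle and 11.9, 15.2, 12.7 and 15.05 CPM in sorbitol libraries. Every sorbitol library there lay below the vehicle range (log2 fold change -0.50, edgeR adjusted p = 0.000456). Around the gene, 8 of 10 peaks at neighbouring gene ends fell. The peak at the DNA repair gene MUS81, chr11:65860067-65860813, went from 30.9 ± 3.56 to 15.8 ± 1.19 CPM (SD, n = 4; log2 fold change -0.97, edgeR adjusted p = 4.61e-11). A weaker one in EFEMP2, near the other end of MUS81, chr11:65868025-65868400, had the lowest value of the 130 peaks, -1.93.

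FOSL2, the FRA-2 gene, had its main peak over the start at chr2:28391546-28393145, which also lies in the antisense gene FOSL2-AS1. It had 59.2, 63.7, 60.4 and 59.6 CPM in vehicle and 43.7, 51.0, 43.0 and 54.6 CPM in sorbitol libraries. All sorbitol values were below the vehicle values but more spread (log2 fold change -0.34 ± 0.08 standard error, edgeR adjusted p = 0.00143), and the call was lost with the loess offset (adjusted p = 0.105) and with factors from gene-end peaks (0.0669). The adjoining peak chr2:28393287-28393652 had 7.06 ± 0.559 and 6.01 ± 0.332 CPM (log2 fold change -0.23, edgeR adjusted p = 0.232). Inside the gene, 4 weak peaks of 0.783 to 2.86 CPM in vehicle libraries were not called. Upstream, chr2:28390149-28390376 had -0.45 (edgeR adjusted p = 0.0452), a call that held in 7 of 18 alternatives. It was lost without vehicle 2 or 4 and without sorbitol 1, 2 or 4 (edgeR adjusted p of 0.0742 to 0.182).

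**Figure D4:**
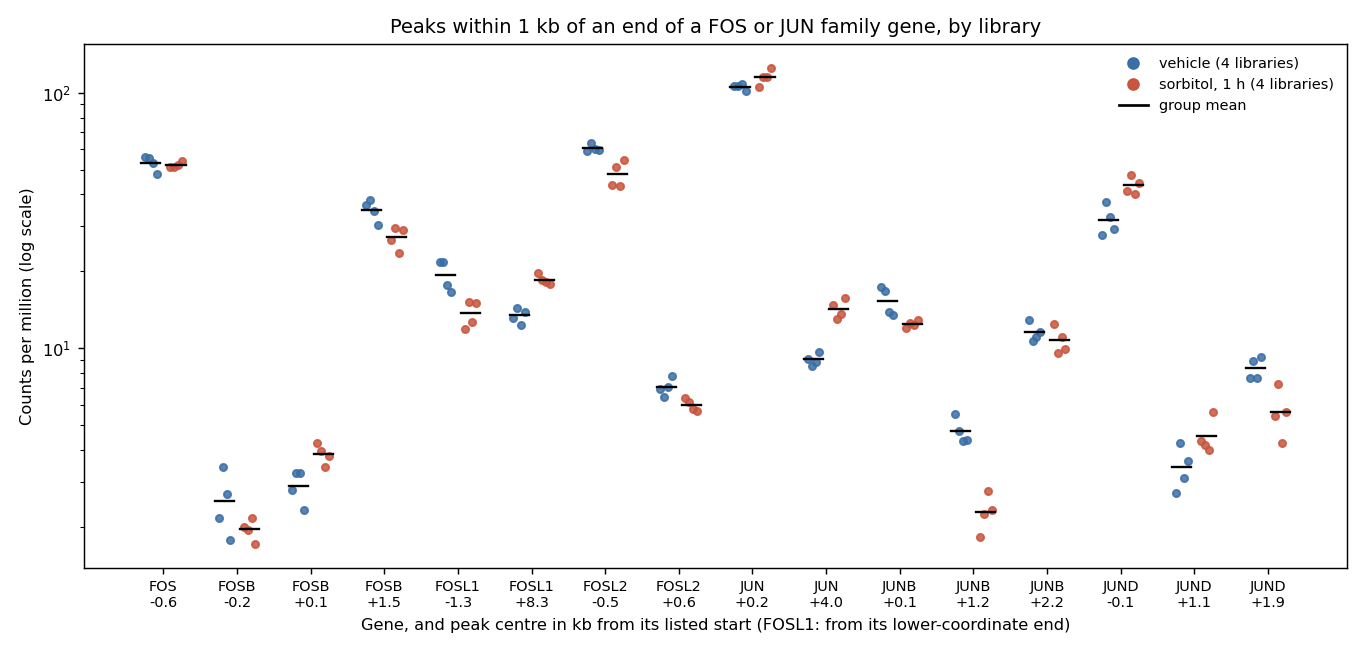
CPM (log axis) in each vehicle (blue) and sorbitol (red) library at the 16 peaks within 1 kb of an end of a FOS or JUN family gene, with the group mean as a black bar; the axis names the gene and the peak centre in kb from its listed start (FOSL1: from its lower-coordinate end). Groups separate upward at JUND -0.1, JUN +4.0, FOSL1 +8.3 and FOSB +0.1. They separate downward at 7 peaks, among them the FOSL2 peaks, the strongest FOSB peak and the JUNB start peak. At 5 peaks they overlap, among them FOS -0.6 and JUN +0.2.

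To compare genes without the scaling between libraries, the log2 ratio of 2 start peaks was taken within each library for the 6 genes with a peak within 1 kb of a listed start, using the strongest such peak. For FOSB that peak begins 884 bp into the gene and had a log2 fold change of -0.35. A weaker FOSB peak, 3 bp from the start, had 0.40 and was not called. The comparison of start peaks was chosen after the peak values were seen. Of the 15 pairs, 10 differed between groups with the smallest exact two-sided permutation p of 0.0286 (adjusted p = 0.0429 over the 15). The pairs share 6 peaks whose changes had been seen, so they are not independent tests. Their adjusted p follows from how many of them reached the smallest p. JUND gained on FOSB by 0.81, on FOSL2 by 0.80 and on JUNB by 0.75: the log2 ratio of FOSB to JUND went from 0.13 ± 0.176 to -0.68 ± 0.0688, that of FOSL2 to JUND from 0.94 ± 0.147 to 0.14 ± 0.106, and that of JUNB to JUND from -1.05 ± 0.256 to -1.80 ± 0.0949 (SD, n = 4). The ratio of FOS to JUND fell by 0.48. JUN gained on FOSB by 0.48, on FOSL2 by 0.47 and on JUNB by 0.42, and FOS gained on FOSB, FOSL2 and JUNB by 0.27 to 0.33. For JUN to JUND (-0.33, exact permutation p = 0.0857) and FOS to JUN (-0.15, 0.0571) the test did not reach the threshold, nor did it among FOSB, FOSL2 and JUNB, whose mutual differences were -0.06 to -0.01. No pair passed after adjustment without vehicle 4, or without sorbitol 2, 3 or 4, where 3 libraries stood against 4; without vehicle 2, 2 pairs in place of 4 passed with a higher ratio.

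The share of a locus's counts that fell in the gene's own end peaks is another ratio within a library. At JUND it was 29.2%, 34.2%, 34.4% and 33.8% in vehicle and 39.2%, 42.1%, 41.8% and 44.0% in sorbitol libraries. At FOSL1 it was 13.3%, 13.7%, 12.3% and 12.9% in vehicle and 16.7%, 17.6%, 17.9% and 17.6% in sorbitol libraries. In both, every sorbitol library exceeded every vehicle library (exact two-sided permutation p of the log2 ratio of end to other counts = 0.0286; adjusted p = 0.1 over 7 loci, not past the threshold). That exact p is the smallest possible, and its adjusted value passes only if most of the 7 loci reach it. The adjusted test therefore could not decide for these loci alone. The summed CPM of the FOSL1 ends was 32.9 ± 3.09 in vehicle and 32.3 ± 1.31 in sorbitol, that of the neighbouring gene ends was 205.1 ± 9.72 and 143.7 ± 7.89, and that of the flanks 13.7 ± 1.26 and 9.02 ± 1.80 (SD, n = 4). At JUND the ends summed to 43.6 ± 5.26 and 53.6 ± 4.68 CPM and the neighbouring gene ends to 67.9 ± 7.12 and 52.7 ± 4.26. None of these sums passed the exact permutation test after adjustment (the smallest adjusted p was 0.0657). The difference in the JUND log2 ratio was 0.55, but 0.27 with flanks of 25 kb and 0.23 without ends of other genes. At FOS, FOSB, FOSL2, JUN and JUNB the groups overlapped, and the mean share at FOS was 34.7% ± 1.29 and 35.4% ± 0.595 (SD, n = 4).

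**Figure D5:**
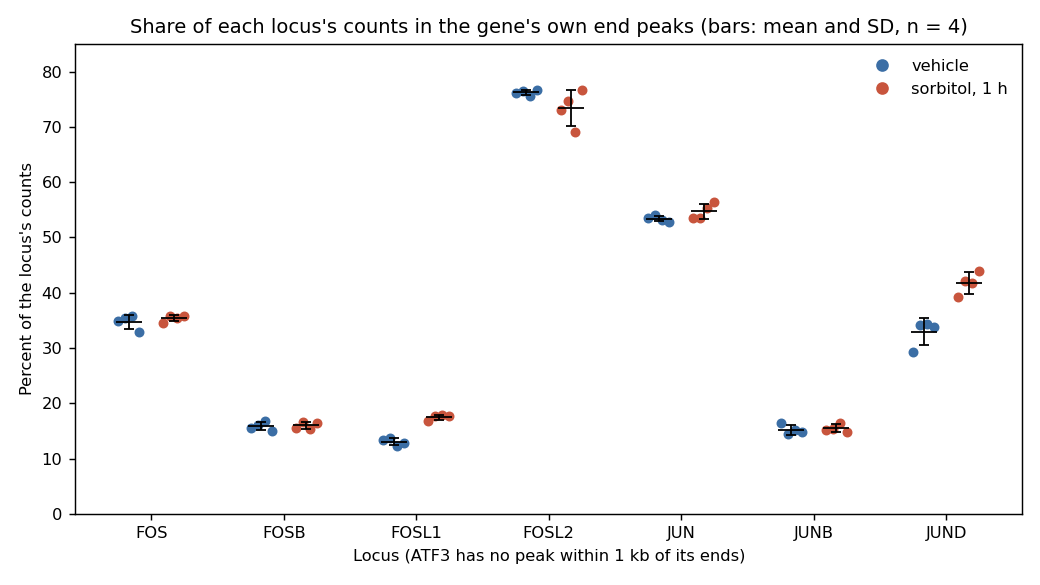
Percent of the counts of each locus that lie in the gene's own end peaks, by library (blue vehicle, red sorbitol), with mean and SD of 4 libraries. The groups separate at FOSL1 (13.1% to 17.5%) and JUND (32.9% to 41.8%) and overlap at the 5 other loci.

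Genes that act with or upstream of these were read at their own ends, in lists chosen from general knowledge. Together their 67 gene-end peaks had 5 higher and 25 lower, beside 8.74% and 32.8% of gene-end peaks of all genes. Among 14 other AP-1 bZIP genes, 13 had a peak, with 1 of 19 peaks higher and 6 lower. The higher peak was at BATF3, a small AP-1 partner and a neighbour of ATF3 on chromosome 1 (chr1:212699013-212700230), which rose from 27.0 ± 1.65 to 35.1 ± 0.652 CPM (SD, n = 4; log2 fold change 0.38, edgeR adjusted p = 0.000567). The smallest p among the lower ones was at ATF2, a JUN partner, which fell from 95.7 to 67.7 CPM (log2 fold change -0.50, edgeR adjusted p = 1.39e-06). The JDP2 peak at chr14:75427243-75428659, a gene on the chromosome of FOS that encodes a JUN partner, had 17.1 and 17.4 CPM and was not called.

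For each list below, the level over gene-end peaks of all genes is 8.74% higher and 32.8% lower. The 16 stress kinase genes, which relay osmotic stress to JUN and ATF proteins, had 26 peaks with 1 higher and 9 lower. MAPK12, a p38 gene, had the smallest p of the lower peaks (log2 fold change -0.98, edgeR adjusted p = 2.83e-05), and a weak peak at an end of MAP3K4, a kinase upstream of p38 and JNK, was higher (1.20, adjusted p = 0.00452). The 6 genes of the ERK route had 9 peaks with 1 higher and 5 lower. MAPK3, which encodes ERK1, had 1 peak of each call, with log2 fold changes of 0.57 and -0.56, and MAP2K1, which encodes its activator MEK1, had -0.45 (edgeR adjusted p = 1.29e-05). The 7 genes of factors that bind immediate early promoters, or respond to osmotic stress, had 13 peaks with 2 higher and 5 lower. SRF fell by 0.45, ELK1 by 0.48 and NFAT5, the osmotic stress factor, by 0.36 on the log2 scale at their strongest peaks, and the higher peaks were weak ones at ends of CREB1 (1.10) and ELK1 (1.02); that of CREB1 was not called without sorbitol 3 (0.94, edgeR adjusted p = 0.0543). With the loess offset, the 67 peaks had 9 higher and 14 lower.

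Over the 8 libraries, the protein-coding genes whose strongest gene-end peak was most like that of FOS, by Pearson's r of log2 CPM among 13611 candidates, were MDM1 (0.979), SPMAP2L (0.968) and EEF1E1 (0.956). For the JUN start peak, RPS6KA3 (0.974) and RNF125 (0.973) were among the 3 most alike. Log2 fold changes were -0.05 to -0.01 for the 3 genes like FOS, 0.27 for RPS6KA3 and 0.13 for RNF125. These r values are a description over 8 libraries, and all peaks of a library share its depth and scaling. ATF3 had no gene-end peak to compare.

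The edge of the 50 kb rule fell between a peak 48527 bp from FOSL1, chr11:65843305-65843522, with 1.36 and 1.40 CPM in vehicle and sorbitol libraries, and a peak 50881 bp from ATF3, chr1:212671658-212671986, with 1.59 and 3.46 CPM. The former is a member and the latter is not.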

How the data were processed

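Per the submitters' processing notes, the authors used Trim Galore 0.6.10, BWA 0.7.17, SAMtools 1.22, Picard, MACS2 2.2.9.1, bedtools and DESeq2, with builds named hg38 and GRCh38. They deposited raw counts per peak for 8 libraries; whether reads or fragments were counted is not given in the sources used here. Column names carry the library names of the labels. The table has a start of 0, so coordinates were read as 0-based and are printed 1-based.

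Peaks were filtered with filterByExpr of edgeR 4.0.16 (R 4.3.3; minimum count 10, minimum total 15), which left 129487 and removed 49. TMM factors and the quasi-likelihood test with treatment as the only term followed. Alternatives were other scalings, DESeq2 1.42.0, other filters, thresholds, flanks and windows, blocks, and leaving out libraries. Sums and ratios were tested by exact permutation of 4 against 4 libraries. Counts of PCR copies are not independent molecules.

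Named were every gene-end peak, per locus the smallest p in each direction outside them, per list the smallest p in each direction, the peaks nearest the 50 kb limit, and the 3 most similar genes, of which 1 is not reported here; other called peaks and list genes were named after their values were seen. Members and lists were chosen with earlier results of these data known. RefSeq promoter windows matched 7 of the 8 genes.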

Additional observations from a re-analysis of the deposited data

Results flagged for a closer look

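A weak peak at an end of MAP3K4, at 161116801 on chromosome 6, had a library far from the others of its group: sorbitol 3 had 2.51 CPM, against 1.42 to 1.55 CPM in the other sorbitol libraries. Among 68 groups of 4 libraries examined, about 3.4 such cases are given by chance.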

How the results depend on the processing

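Leaving out vehicle 4 and sorbitol 4 together, and all alternatives of the start-peak ratios, were chosen after seeing the data. The 14 higher and 37 lower member peaks kept their sign in every alternative that tested them, and 10 and 25 of them kept their call in all. Library totals gave 22 higher and 32 lower, and TMM factors from gene-end peaks, which move the genome-wide median from 0.01 to 0.19, gave 34 and 25. Flanks of 25 kb gave 22 lower, and flanks of 100 kb gave 25 higher and 62 lower, since they test fewer or more peaks. Of gene-end peaks, 5 were higher with library totals, 6 with gene-end factors and 5 with a mean of at least 50 counts. Lower gene-end peaks numbered 3 with the loess offset, with gene-end factors and with a window of 500 bp. At ATF3, gene-end factors gave 13 higher. The loess offset gave 9 higher and 14 lower for the other lists. The causes of these moves were not tested. Refits lacking 1 library gave 12 to 20 higher and 34 to 37 lower members, 3 to 4 higher and 5 to 6 lower gene-end peaks, and 5 to 10 higher and 0 lower ATF3 peaks. Start-peak ratios passing ranged from 0 to 3 higher and 0 to 7 lower.

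Values that changed sign, all log2 differences of sorbitol from vehicle, were not called in the reported fit. The FOS start peak became 0.055 (library totals), 0.168 (loess offset), 0.149 (gene-end factors) and 0.0527 (mean of at least 50 counts), and the JUNB peak at 12793409 became 0.0711 with gene-end factors. Sums of the FOS classes became 0.0564, 0.0127 and 0.0158 with library totals, and 0.150, 0.107 and 0.110 with gene-end factors. With gene-end factors FOSB flanks became 0.0418, FOSL2 flanks 0.00271 and FOSL1 ends 0.153; FOSL1 ends became 0.0596 with library totals. The end-to-other ratio became -0.0892 at FOSB with 25 kb flanks, -0.135 at JUN with a 2 kb window, and -0.148 at FOSB, -0.161 at JUN and -0.0823 at JUNB without ends of other genes. With each library left out in turn, sums ranged from -0.0648 to 0.0228 at FOSL1 ends, from -0.0127 to 0.0449 at JUN neighbours and from -0.015 to 0.0638 at ATF3 neighbours. The end-to-other ratio ranged from -0.00961 to 0.0513 at FOSB and from -0.0116 to 0.0724 at JUNB. Start-peak ratios ranged from -0.0667 to 0.0249 (FOSB to FOSL2), -0.0962 to 0.00465 (FOSB to JUNB) and -0.121 to 0.00239 (FOSL2 to JUNB).

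Replicate numbers did not pair the libraries: same-numbered deviations correlated at -8.04e-05, 0.0067, -0.03 and -0.13. Fitted as a replicate block, the number gave 13 higher and 35 lower members, the JUNB start peak was -0.30 (adjusted p = 0.0517), and 0 start-peak ratios passed in either direction, where 4 pairs cannot give a sign-flip p under 0.125. Peaks with a mean under 50 counts carry the widest errors.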
